A study of Mus musculus with 2 samples.

Results

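The genes described here encode the translation initiation factors, the proteins that bring the initiator tRNA, the small ribosomal subunit and the mRNA together before protein synthesis starts. Members were chosen by symbol, as genes whose symbol starts with Eif followed by a number and which are the only gene named for a probe set, the group of probes that measures 1 transcript region on the array. This gave 47 of 18193 genes on the array, measured by 133 probe sets. They comprised 10 genes of eIF2, its exchange factor eIF2B and the related Eif2a and Eif2d, 11 genes of eIF3, 13 genes of eIF4 and its binding proteins, 4 Eif2ak kinases and 9 genes of eIF1, eIF5 and eIF6. A further 6 probe sets name a member together with another gene and were left out of all counts. Eif3g, Eif4g1 and Eif1 are not among the 47 genes, so the complexes are not fully covered.

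Mouse primary T cells, activated with antibodies to CD3 and CD28, were measured without triptolide (stimulated) and with triptolide at 50 ng/ml (stimulated and treated), in culture for 18 h, on 1 Affymetrix array each. The sources used here give no strain, age, sex, genotype or number of animals, and no length of exposure to triptolide. Both arrays come from stimulated cells, so a ratio compares treated with untreated activated cells and says nothing about resting cells. With 1 array in each group, no test between the groups exists, and every ratio below describes these 2 arrays without a replicate check.

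Initiation runs in steps that the gene names follow. eIF2 carries the initiator tRNA as a complex with GTP, eIF2B recharges eIF2 with GTP, and the Eif2ak kinases phosphorylate eIF2 under stress and so slow this recharging. eIF4E binds the mRNA cap, eIF4G bridges it to the ribosome through eIF3, and eIF4A unwinds the mRNA, while 4E-binding proteins keep eIF4E from eIF4G. In T cells, activation is known to raise protein synthesis strongly. Triptolide is a plant diterpenoid that binds the XPB subunit of the general transcription factor TFIIH.

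Values are MAS5 signals, linear fluorescence summaries of each probe set in arbitrary units. A floor of 118 was set from probe sets of chemosensory receptor genes. Lower signals were raised to this floor, and a gene was counted as detected with a signal above it on at least 1 array. Each gene is represented by its brightest probe set unless stated otherwise, and signals of different probe sets are not comparable as levels. Of all 45037 probe sets, 44.9% exceeded the floor without triptolide and 42.2% with it. All 11 matched T cell markers were detected, with a summed signal of 67845 without and 45463 with triptolide. Of them 4 (36.4%) were lower by 2-fold or more, against 12.5% of all detected genes. Lists of markers of other cells had summed signals from 101 to 1634 without and 108 to 1591 with triptolide over 6 lists. The highest sums were those of natural killer cell markers, where Eomes, which activated T cells can also express, had 1380.5 and 1380.4. Of the matched markers, 4 of 5 for B cells, 4 of 6 for myeloid cells and 2 of 3 for natural killer cells were detected. Among these, the B cell gene Cd22 was at least 2-fold lower with triptolide (369.2 and 178.8). Cd79a went the other way (349.3 and 673.7), Cd79b had 357.5 and 338.2, and Ms4a1 had 227.1 and 138.6. The summed signal of the B cell list was 1336 without and 1344 with triptolide. The myeloid gene Lyz2 was at least 2-fold higher, from a value under the floor to 259.5. The other detected myeloid genes, Csf1r, Cd68 and Adgre1, had log2 ratios of 0.08, 0.17 and 0.68. The neutrophil gene Mpo was also at least 2-fold higher, from under the floor to 240.2, while S100a8 went from 177.8 to under it. Markers under the floor on both arrays included the B cell factor Pax5, the monocyte marker Cd14 and the natural killer receptor Ncr1. Both detected platelet markers were at least 2-fold higher with triptolide (summed signal of the 4 matched markers 642 and 1318). The part of these shifts in the ratios below was not tested, and fewer cells of a type and less RNA per cell cannot be told apart.

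As a family, the initiation factors had a median ratio close to that of all detected genes. Detected members numbered 45, and in 4 of them (8.89%) the signal was lower by 2-fold or more with triptolide, against 12.5% of all 10968 detected genes. None was at least 2-fold higher, against 5.63% of all detected genes. The 2 members not detected were Eif2s3y and Eif4a3, and 1 member, Eif5a2, was detected on the stimulated array alone. The 4 lower genes were Eif4ebp1, Eif4enif1, Eif4e3 and Eif2a. The median log2 ratio of the members was -0.14, against -0.16 over all detected genes, and 29 members (64.4%) had a ratio below 0, against 60.2% of all detected genes. Genes of the whole array that were at least 2-fold lower made up 68.9% of all 2-fold differences as deposited, 58.2% after scaling both arrays to the same median and 50.9% after quantile normalization, so directions are relative to the scaling.

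**Figure D1:**
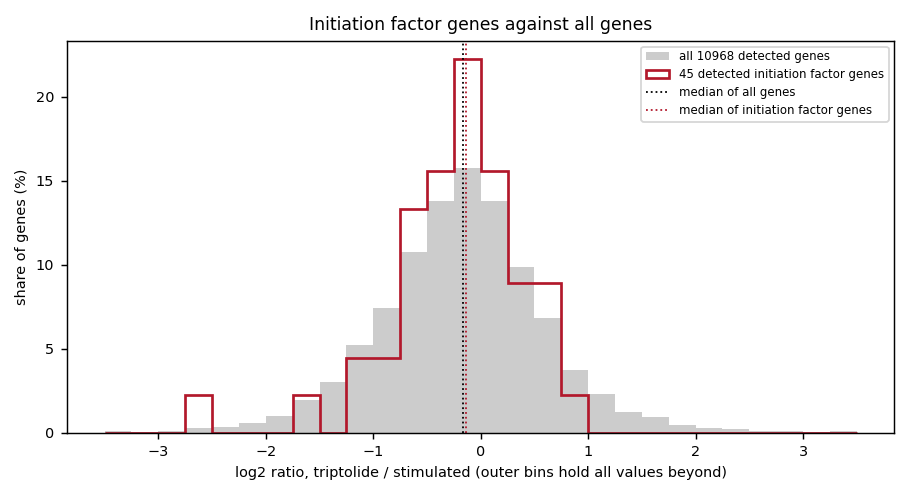
Distribution of log2 ratios (triptolide over stimulated, x axis) as the share of genes in percent (y axis), in grey for all 10968 detected genes and as a red line for the 45 detected initiation factor genes, with dotted lines at the medians of -0.16 and -0.14. The red line has the same centre as the grey bars, reaches no gene past 2-fold on the right and has 1 gene far to the left, Eif4ebp1 at -2.67.

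**Figure D2:**
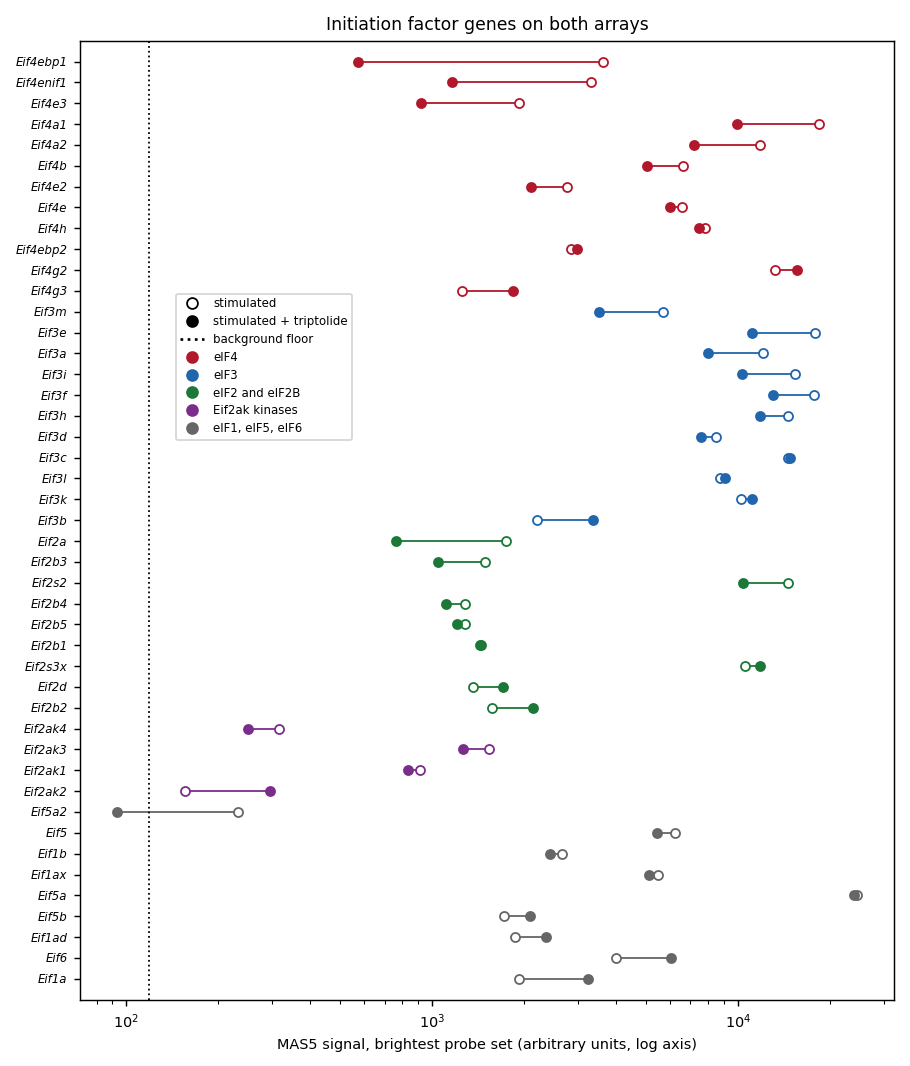
MAS5 signal (x axis, log scale, arbitrary units) of the brightest probe set of each of the 45 detected genes without triptolide (open circle) and with it (filled circle), coloured by group, with the background floor of 118 as a dotted line. Signals are drawn without raising them to the floor. The long bars to the left belong to Eif4ebp1, Eif4enif1, Eif5a2, Eif2a and Eif4e3, and only Eif5a2 crosses the floor.

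The eIF4 group held 3 of the 4 genes past 2-fold. Of its 12 detected members 3 lay past 2-fold, all lower, and 9 had a ratio below 0, with a median log2 ratio of -0.39. Of all detected genes 12.5% were lower by 2-fold or more and 60.2% lay below 0, with a median of -0.16. Eif4ebp1 encodes 4E-BP1, which holds eIF4E away from eIF4G until the kinase complex mTORC1 phosphorylates it. The Eif4ebp1 signal dropped from 3632 to 570.4 between the stimulated and the treated cells, a 6.37-fold difference (log2 ratio -2.67). Its second bright probe set went from 4095 to 388, 10.5-fold lower, and the remaining dim one from 147.8 to a value under the floor. All 3 probe sets of Eif4ebp1 were thus lower with triptolide. Only 31 of the 10968 detected genes, Eif4ebp1 included, had a ratio this low. The related Eif4ebp2, which encodes 4E-BP2, had signals of 2848 and 2985 (log2 ratio 0.07), and the 4 of its probe sets that exceeded the floor in both samples had log2 ratios from -0.09 to 0.38. Another dim one went from 177.8 to a value under the floor. The 4E-BP genes therefore differed widely from each other on these arrays. The only probe set for Eif4ebp3 is shared with Ankhd1 and went from 855 to 1167.

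Eif4enif1 encodes 4E-T, an eIF4E-binding protein that carries eIF4E into the nucleus and into processing bodies. Its only probe set went from 3311 to 1165, 2.84-fold lower with triptolide. Eif4e3 encodes an atypical cap-binding relative of eIF4E, and went from 1922 to 917, 2.10-fold lower. Its dimmer probe set went from 1040.3 to 625, 1.67-fold lower, so Eif4e3 lies at the 2-fold line. It fell short of 2-fold after median scaling (log2 ratio -0.94), quantile normalization (-0.89) and with the median over its probe sets (-0.90).

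The cap-binding protein itself had a ratio near that of the array. Eif4e went from 6582 to 5980 (log2 ratio -0.14), and its second bright probe set from 925 to 735 (-0.33). A dim Eif4e probe set went the other way, from 152.9 to 243.8. Eif4e2 encodes 4EHP, a cap-binding protein that represses translation, and went from 2759.9 to 2109 (log2 ratio -0.39). Its 2 bright probe sets were both lower, while 2 dim ones had ratios above 0 (0.34 and 0.69). Of the eIF4G relatives, Eif4g2, which encodes the eIF4G-like protein DAP5 without an eIF4E-binding site, went from 13252 to 15565 (log2 ratio 0.23), with 4 probe sets between 0.23 and 0.62. Eif4g3, which encodes eIF4GII, had the highest ratio of the group, with signals of 1254 and 1843 (log2 ratio 0.56). Its 2 other detected probe sets were dim and under the floor with triptolide, with log2 ratios of -0.48 and -0.36, so the median over its detected probe sets was -0.36.

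The genes of both eIF4A helicases were lower, short of 2-fold on their brightest probe sets. Eif4a1 encodes eIF4A1, the RNA helicase of the cap-binding complex, and its brightest probe set went from 18454 to 9932, 1.86-fold lower. The other probe sets of Eif4a1 went from 19611 to 8438 (2.32-fold lower) and from 8100.2 to 3678 (2.20-fold lower). All 3 Eif4a1 probe sets were lower, 2 of them past 2-fold, and the median over them was -1.14 in log2 ratio. The paralogue Eif4a2 went from 11814 to 7171, 1.65-fold lower on its single probe set. Of the cofactors that stimulate the helicase, Eif4b went from 6594 to 5038 (log2 ratio -0.39), with 3 probe sets between -0.73 and -0.09. Eif4h went from 7786 to 7442 (log2 ratio -0.07), and its next 2 probe sets by brightness had log2 ratios of -0.06 and -0.16. A much dimmer Eif4h probe set went from 482 to 216, which is -1.16 on the log2 scale. Eif4a3, which encodes a helicase of the exon junction complex, was under the floor on both arrays on its own probe set (76.9 and 35.0). The probe set it shares with Gm5576 had signals of 4562 and 4156 (log2 ratio -0.13).

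**Figure D3:**
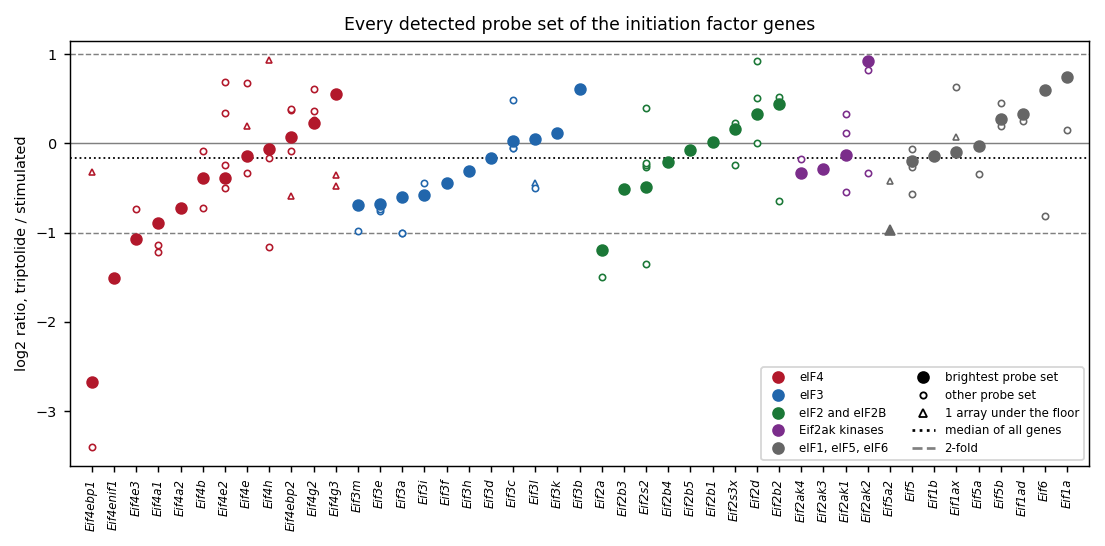
Log2 ratio of triptolide over stimulated (y axis) for every detected probe set of the initiation factor genes (x axis), coloured by group, with large filled symbols for the brightest probe set of a gene, small open symbols for the others and triangles where 1 array lay under the floor. Dashed lines mark 2-fold and the dotted line marks the median of all detected genes at -0.16. Both bright probe sets of Eif4ebp1 lie below -2.6, the 3 of Eif4a1 lie between -1.22 and -0.89, and no probe set reaches 2-fold on the upper side.

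Promoter sequences of RefSeq (build GRCm38.p6, 250 bases before to 50 after the annotated gene start) were matched for 38 of the 47 genes by symbol. Because Myc, a transcription factor that binds the E-box CACGTG, was itself lower (signals of 6993 and 3242, log2 ratio -1.11), the windows were searched for this motif, which reads the same on both strands. It stood in a window of 9 of the 38 matched members (23.7%), against 8.09% of all 27025 genes in the table and 12.0% of the 8907 detected genes in it. Genes with several annotated starts have several windows and so more room for a match. The 9 members with the motif, all detected, had log2 ratios from -0.97 to 0.11 with a median of -0.14. The 27 other detected members with a window had a median of -0.09. Over all detected genes with a window the order was the opposite, with medians of -0.11 with the motif and -0.16 without it. A link between the motif and lower signals was not tested. Of the 4 genes past 2-fold, 2 were matched to a window, Eif2a and Eif4enif1, and none of their windows holds the motif. Eif4ebp1 and Eif4e3 were not matched. Shown first are the windows of the helicase gene Eif4a1, of the eIF3 scaffold gene Eif3a and of Eif4e, because they hold the motif and stand for a lower gene of eIF4, a lower gene of eIF3 and the cap-binding protein. Eif2a is shown as a gene past 2-fold without it. Sequences run from 5′ to 3′ along the gene, and capitals mark CACGTG. The Eif4a1 window is chr11:69672374-69672673, minus strand, with the motif starting 189 bases before the gene start. The Eif3a window is chr19:60790644-60790943, minus strand, with the motif starting at base 23 after the start. The Eif4e window is chr3:138527018-138527317, plus strand, with motifs starting 228 and 64 bases before the start, and is 1 of 2 windows of this gene. The Eif2a window is chr3:58525571-58525870, plus strand. A match describes letters only and is no evidence of binding.
Eif4a1: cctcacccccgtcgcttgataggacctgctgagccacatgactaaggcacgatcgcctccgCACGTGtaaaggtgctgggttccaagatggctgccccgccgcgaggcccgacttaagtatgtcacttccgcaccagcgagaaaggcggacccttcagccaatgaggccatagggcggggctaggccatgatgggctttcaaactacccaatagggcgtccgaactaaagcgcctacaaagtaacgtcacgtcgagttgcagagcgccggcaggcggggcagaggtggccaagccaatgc
Eif3a: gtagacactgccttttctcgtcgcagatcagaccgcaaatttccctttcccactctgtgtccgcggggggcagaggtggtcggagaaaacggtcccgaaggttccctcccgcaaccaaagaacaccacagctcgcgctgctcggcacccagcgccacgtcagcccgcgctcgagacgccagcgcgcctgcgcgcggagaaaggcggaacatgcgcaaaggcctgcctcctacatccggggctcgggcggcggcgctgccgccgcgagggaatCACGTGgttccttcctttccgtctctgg
Eif4e: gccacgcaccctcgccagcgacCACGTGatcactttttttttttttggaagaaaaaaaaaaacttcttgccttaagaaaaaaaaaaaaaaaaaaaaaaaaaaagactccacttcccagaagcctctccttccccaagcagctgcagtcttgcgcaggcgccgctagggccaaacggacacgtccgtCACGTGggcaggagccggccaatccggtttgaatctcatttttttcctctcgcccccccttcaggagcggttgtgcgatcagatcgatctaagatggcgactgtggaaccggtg
Eif2a: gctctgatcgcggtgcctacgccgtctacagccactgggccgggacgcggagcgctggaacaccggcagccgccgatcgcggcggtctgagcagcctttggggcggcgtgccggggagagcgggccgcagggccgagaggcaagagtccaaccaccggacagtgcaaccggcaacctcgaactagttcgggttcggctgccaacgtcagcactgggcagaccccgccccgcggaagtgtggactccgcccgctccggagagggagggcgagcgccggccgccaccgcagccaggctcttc

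The 11 eIF3 genes analysed here, which leave out those of subunits g and j, all stayed within 2-fold. Their log2 ratios ran from -0.69 to 0.61, with a median of -0.31, against -0.16 over all detected genes. Of all detected genes 12.5% were lower and 5.63% higher by 2-fold or more. eIF3 is the large scaffold that joins the small ribosomal subunit to eIF4G. Its core is made of the subunits a, c, e, f, h, k, l and m, which share the PCI or MPN fold. Of these 8, 5 (62.5%) had ratios below 0, against 60.2% of all detected genes. The lowest was Eif3m, with signals of 5680 and 3515 (1.62-fold lower) and a second, dim probe set at -0.98. Eif3e went from 17832 to 11121 (1.60-fold lower), and its 3 detected probe sets lay between -0.75 and -0.68. Eif3a went from 12114 to 7967 on its brightest probe set (1.52-fold lower), and its 4 probe sets lay between -1.01 and -0.59. The genes of these core subunits were therefore lower on each of their detected probe sets, by less than 2-fold on the brightest.

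The other core subunits ranged from lower to slightly higher. Eif3f went from 17732 to 13033 (log2 ratio -0.44) and Eif3h from 14591 to 11809 (-0.31). Eif3c went from 14577 to 14857 (0.03), with 4 probe sets between -0.05 and 0.48. Eif3k went from 10277 to 11123 (0.11), and the brightest Eif3l probe set lay at 0.05, with 2 dim ones at -0.50 and -0.45. On the brightest probe sets 3 of the 8 core genes thus had ratios above 0, none by more than 0.11. Among the subunits outside the core, Eif3i went from 15418 to 10359 (1.49-fold lower) and its second probe set was lower as well (-0.44). Eif3d, whose product can bind the cap of some mRNAs, had a log2 ratio of -0.17. Eif3b, which encodes the subunit to which subunit i attaches, had the highest ratio of the group, with signals of 2200.0 and 3361 (1.53-fold higher) on its single probe set. Eif3b and Eif3i thus pointed opposite ways on these arrays. The 3 probe sets shared by Eif3j1 and Eif3j2, near-identical genes of the loosely bound subunit j, had log2 ratios from 0.12 to 0.94.

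The eIF2 and eIF2B group had a median log2 ratio of -0.08, against -0.16 over all detected genes. Of its 9 detected members 1 (11.1%) was at least 2-fold lower, against 12.5% of all detected genes. That gene was Eif2a, which encodes an initiator tRNA-binding protein separate from the eIF2 trimer. Eif2a went from 1742 to 762, 2.28-fold lower, and its second detected probe set went from 469.5 to 166.0, 2.83-fold lower. Both detected Eif2a probe sets were therefore past 2-fold. After quantile normalization its log2 ratio was -0.998, just short of 2-fold. Eif2d, which encodes a factor that delivers tRNA to the ribosome and takes part in recycling, went the other way, from 1364 to 1710.0 (log2 ratio 0.33), with 4 detected probe sets between 0.01 and 0.93.

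Of the eIF2 trimer, 2 genes were detected, both within 2-fold, and the gene of the alpha subunit was not analysed here. Eif2s2, which encodes the beta subunit, went from 14613 to 10396 (log2 ratio -0.49), and its next 3 probe sets by brightness lay between -0.26 and -0.22. The 2 dimmest probe sets of Eif2s2 disagreed, at 0.40 and -1.35. Eif2s3x, which encodes the gamma subunit from the X chromosome, went from 10577 to 11788 (log2 ratio 0.16). The other Eif2s3x probe sets, bright as well, disagreed, at 0.22 and -0.24. Its Y-linked counterpart Eif2s3y lay under the floor on both arrays with both probe sets (3.4 and 10.9 on the first, 4.1 and 4.7 on the second). Of the 5 subunits of the exchange factor eIF2B, 3 had ratios below 0 and 2 above. Eif2b3 had the lowest, from 1487 to 1043 (log2 ratio -0.51). Eif2b2 had the highest, from 1568 to 2134 (0.45), with its second bright probe set at 0.52 and a dim one at -0.64. Eif2b5, which encodes the catalytic subunit, had a ratio of -0.08. The subunits of eIF2B thus showed no common direction.

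The Eif2ak kinases all stayed within 2-fold, as did 8980 of all 10968 detected genes. Eif2ak4 encodes GCN2, which senses uncharged tRNA, and went from 314.5 to 249.7 (log2 ratio -0.33). Eif2ak3 encodes PERK, the kinase of endoplasmic reticulum stress, and went from 1537 to 1262 (-0.28). Eif2ak1 encodes HRI, the kinase that senses haem, and went from 916 to 837 (-0.13), while its second bright probe set went the other way, from 737 to 927 (0.33). No direction is given for Eif2ak1 for that reason. Eif2ak2 encodes PKR, which senses double-stranded RNA and is induced by interferon, and had the highest ratio of the kinases. Its signals were dim, 155.6 without and 294.3 with triptolide (1.89-fold higher). A second Eif2ak2 probe set went from 138.7 to 244.7 (0.82) while the remaining one went the other way, from 178.2 to 141.2 (-0.34). The ratio of Eif2ak2 was past 2-fold after median scaling (log2 ratio 1.04) and quantile normalization (1.14). With a floor of 237 the ratio was 0.31, so it depends on the scaling and on where background is set.

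Among the eIF1, eIF5 and eIF6 genes none of 9 was past 2-fold, while 8980 of all 10968 detected genes were within it too. The median log2 ratio of the group was -0.03, against -0.16 over all detected genes. Eif1a, which encodes a form of eIF1A, the factor that keeps the ribosome scanning, had the highest ratio, from 1925 to 3226 (1.68-fold higher), while its second probe set had a log2 ratio of 0.15. The X-linked Eif1ax went from 5477 to 5138 (-0.09). Eif5a, which encodes a hypusine-carrying protein that also acts in elongation, went from 24620.2 to 24052 (-0.03), with its second probe set at -0.34. Its paralogue Eif5a2 went from 231.5 to a value under the floor, at least 1.96-fold lower. Eif5a2 passed 2-fold with housekeeping scaling (log2 ratio -1.06) and with no floor (-1.31), and its second probe set was dim as well. Eif5, which encodes the protein that triggers GTP hydrolysis by eIF2, went from 6225 to 5423 (-0.20), and its 5 probe sets lay between -0.57 and -0.07. Eif5b, which encodes the GTPase of subunit joining, went from 1718 to 2085 (0.28). Eif6, which encodes a factor that keeps the large ribosomal subunit apart from the small one, went from 4009 to 6052 (1.51-fold higher), while its dim second probe set went from 245.4 to 139.3 (-0.82). The direction of Eif6 rests on which probe set is read.

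Probe sets of the same gene gave a guide to technical precision, which covers probe behaviour and not the spread between cultures. Of 30 member genes with at least 2 probe sets exceeding the floor in both samples, 18 had all of these on the same side of 0. In 7 of them, namely Eif2ak2, Eif2b2, Eif2s2, Eif4e, Eif4e2, Eif4h and Eif6, the log2 ratios spanned more than 1. Among probe sets of at least 4 times the floor, 1 gene spanned more than 1, Eif4h (1.10). The differences between the 2 brightest probe sets of a gene, over 3733 genes of the whole array, gave a robust SD per probe set of 0.39 in log2 ratio. Only the ratios of Eif2a, Eif4ebp1 and Eif4enif1 lay more than 3 such SDs from 0, and 38 of the 45 members lay within 2. Measured from the median of all detected genes, Eif2a lay at -1.03, within 3 such SDs. Eif4ebp1 (-2.51) and Eif4enif1 (-1.35) stayed beyond 3. The plain SD was larger, 0.49, and by it Eif2a lay within 3 SDs of 0. Eif4enif1 measured from that median also lay within 3 plain SDs. The share of all genes beyond 3 SDs is not given here.

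**Figure D4:**
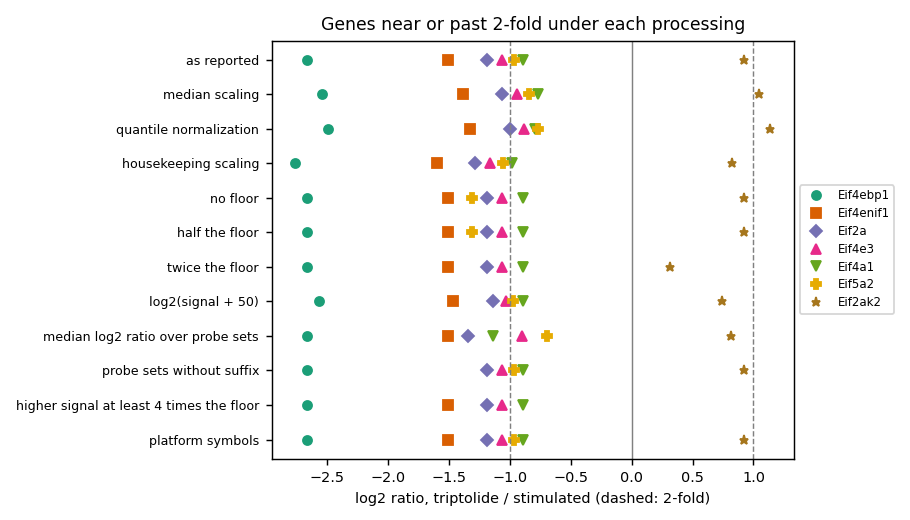
Log2 ratio of triptolide over stimulated (x axis) for the 7 genes near or past 2-fold, under the processing reported here and 11 alternatives (y axis), with dashed lines at 2-fold. Eif4ebp1 stays between -2.76 and -2.49 and Eif4enif1 between -1.60 and -1.33 wherever it had a value, while Eif2a, Eif4e3, Eif4a1, Eif5a2 and Eif2ak2 each cross the 2-fold line in at least 1 setting.

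Genes that act around the initiation factors were read from separate lists. Of 13 regulators and targets of eIF2 phosphorylation, all detected, 4 lay past 2-fold, all of them lower (30.8%, against 12.5% of all detected genes), with a median log2 ratio of -0.59, against -0.16. The 2 lowest were Asns and Trib3. Asns, which encodes asparagine synthetase, went from 1246 to 201 (log2 ratio -2.63), and Trib3 went from 381 to a value under the floor (at least 3.22-fold lower). Atf4 encodes a transcription factor whose translation is known to rise when eIF2 is phosphorylated and which is known to induce Eif4ebp1. Its signal went from 7321 to 4024 (-0.86). A part of Atf4 in the ratio of Eif4ebp1 or of this list was not tested. The highest of this list were Impact, which encodes an inhibitor of GCN2 (0.62, with a second probe set at -0.34), and Ddit3 (0.48, with a second probe set at -0.76).

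Of 18 detected regulators of the cap-binding complex, 2 (11.1%) were at least 2-fold lower and 1 (5.56%) was at least 2-fold higher. These shares were near those over all detected genes, 12.5% and 5.63%. The median of the list was -0.01. Ncbp2, which encodes a subunit of the nuclear cap-binding complex, went from 605.5 to 1777 (2.93-fold higher), and its 2 other probe sets were also past 2-fold. The next highest was Rheb, the GTPase that activates mTORC1 (0.77). The 2 lower genes were Pabpc4, which encodes a poly(A)-binding protein (-1.12), and Paip1, which encodes a partner of such proteins that binds eIF4A (-1.11). Of 8 detected elongation factor genes, only Eef2k was past 2-fold, at least 2.89-fold lower from a signal of 342. This share, 12.5%, equals that of lower genes over all detected genes. Its target Eef2 was next lowest, from 27359 to 14468 (-0.92), and Eef1a2 and Eefsec were highest (0.34 and 0.27). Of 7 detected termination and recycling genes 1 was at least 2-fold higher (14.3%, against 5.63% of all detected genes). That was Etf1, which encodes the release factor eRF1, 2.01-fold higher by its brightest probe set. The next Etf1 probe set had a log2 ratio of -0.11 and 3 dimmer ones lay between 0.64 and 0.99. Gspt1, which encodes its partner eRF3a, was next highest (0.19), and Abce1 and Denr were lowest (-0.59 and -0.35). Abce1 had a second bright probe set at 0.18 and a dim one at -1.02, and Denr a dim one at 0.37. None of 6 other initiation helpers was past 2-fold, with Dhps, the first enzyme of hypusine synthesis, lowest at -0.72 and Mtif2, the mitochondrial initiation factor, at -0.49. Dhx29 and Mtif3 were highest (0.36 and -0.02).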

How the data were processed

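Total RNA of the 2 samples, grouped by source name, was hybridised to 1 array each. Per the submitters' processing notes, the authors used MAS5 to make the deposited signal intensity of each probe set, a linear value. The sources used here state neither its version nor its scaling. The first 100 probe sets listed had a 2% trimmed mean intensity of 2000.0 on each array, against 383 and 340 over all 45037, so the scaling appears to rest on those 100. The number of arrays limits the precision.

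Of the probe sets, 34945 carry 1 gene symbol in the platform annotation, 932 several and 9160 none. Symbols were updated through Entrez numbers (RefSeq, GRCm38.p6) for 34741, which changed no member. The floor of 118 is the higher of the arrays' 95th percentiles of 87 chemosensory receptor probe sets (107 and 118). The probe set with the highest log2 signal, averaged over the arrays after raising lower signals to the floor, stood for its gene. Without replicates no test was possible, and genes were counted at 2-fold. Bright means a signal of at least 4 times the floor on 1 array.

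Values were printed for genes past 2-fold, the 2 highest and 2 lowest ratios and the brightest gene of each group, every Eif2ak kinase and 4E-BP, and genes whose probe sets spanned more than 1 in log2 ratio (28 genes). Of each other list, the 2 highest and 2 lowest genes were named; other names were chosen after their values were seen. Members, lists and the rule were chosen with earlier results of these data known. The calculation (Python 3.11.15, numpy 2.4.6, pandas 2.3.3) was tested on simulated data. The changes simulated were larger than 2-fold, in genes well above the floor, with less noise than between probe sets of a gene. That check therefore covers neither dim genes nor ratios near 2-fold. Alternatives were 3 scalings, 4 treatments of low signals, 2 choices of probe sets, a limit to bright genes, and unchanged symbols.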

Additional observations from a re-analysis of the deposited data

How the results depend on the processing

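No paired analysis was possible because each group holds 1 array. The spread used to judge a shift was the robust SD per probe set of 0.39, divided for a median by the square root of its number of genes. This is a yardstick only, since it treats genes as independent and covers probe behaviour alone. It is no standard error of a group median and gives no test. Median scaling and quantile normalization move the median of all genes by 0.11 and 0.17, and the members with it. Under them the count of members at least 2-fold higher was 1 in each case (Eif2ak2) in place of 0, the median of all members was -0.014 and -0.017, that of eIF3 -0.18 in both, and that of eIF4 -0.26 and -0.25. Quantile normalization also left 2 lower members in place of 4 (Eif4ebp1 and Eif4enif1) and gave medians of 0.12 for eIF2 and eIF2B, -0.0033 for the Eif2ak kinases and 0.15 for the eIF1, eIF5 and eIF6 genes. Housekeeping scaling, on 18 genes, gave a member median of -0.23. The median over probe sets gave -0.21 for all members and -0.44 for eIF3. Without probe sets of shared or multiple transcripts, 36 members were left, with medians of -0.24 for eIF2 and eIF2B and -0.17 for eIF3, and Eif4enif1 had no value. With the floor raised to 237, or among bright genes only, the eIF1, eIF5 and eIF6 median was 0.12, since Eif5a2 dropped out. Among named genes no called gene changed its sign under any of the 11 alternatives, and 7 single-gene values moved by more than the spread. These were Eif2ak2 (0.31 with that floor), Eif4g3 (-0.36) and Eif6 (-0.11) with the median over probe sets, and Eif2d (0.93), Eif4e2 (0.34), Eif4h (-1.16) and Eif6 (-0.82) without suffixed probe sets. With no floor, 1093 genes of the whole array were at least 2-fold higher in place of 618. Signal over background limits the dim genes, chiefly Eif2ak2, Eif2ak4 and Eif5a2.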

Other observations

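The sources used here do not state the sex of the animals. Besides Eif2s3y, the Y-linked gene Kdm5d lay under the floor on both arrays with all 3 probe sets, and 1 of 4 probe sets of the Y-linked Uty was above it on the stimulated array (154.4) and under it on the triptolide array (96.7). Xist, the transcript of the inactive X chromosome, had signals of 3072 and 3068. These genes were chosen after the value of Eif2s3y was seen.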
